A study of Mus musculus with 9 samples.

Results

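The genes described here restrain cell proliferation, 10 in all: the cyclin-dependent kinase (CDK) inhibitors Cdkn1b, Cdkn1c, Cdkn2b, Cdkn2c and Cdkn2d, and the Btg/Tob antiproliferative genes Btg1, Btg2, Btg3, Tob1 and Tob2. They were taken by name from the annotation of a 1-colour microarray, which named 19938 genes, of which 13182 were bright enough to be tested. Of the 10 members, 9 had at least 1 probe set annotated to no other gene, and these 9 genes held 10 such probe sets in all. Btg3 had none of its own, because both of its probe sets also carry the name of Gm7334, so Btg3 is given no value. Cdkn2c had its own probe set, but that probe set was dim. It lay above the 40th percentile of all probe sets on 1 of 9 arrays, where at least 3 were required, and Cdkn2c was therefore not tested. The other 8 members lay above that percentile on all 9 arrays.

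RNA was profiled in mouse embryonic stem (ES) cells with the genotype Dgcr8 -/-. All 3 groups carry this deletion, which removes a protein that microRNA hairpins need for their first cut. One group received 50 nM of a let-7c mimic, another 50 nM of a miR-294 mimic, and the third was mock transfected. LIF (leukaemia inhibitory factor) was absent from the medium of all cells, and RNA was taken 12 h after transfection, with 3 biological replicates and so 3 arrays per group. The mock group received no control mimic, so each difference from mock also holds whatever transfected RNA does as such, and the labels do not say whether the cells are 1 clone.

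CDK inhibitors fall into the Cip/Kip and Ink4 families. Cip/Kip members here are Cdkn1b, encoding p27Kip1, and Cdkn1c, encoding p57Kip2. Their proteins bind and inhibit cyclin-CDK complexes including cyclin E with Cdk2. Ink4 members here are Cdkn2b, Cdkn2c and Cdkn2d, whose proteins bind Cdk4 and Cdk6 and keep them from D cyclins. Btg and Tob proteins slow proliferation and tie mRNAs to the CCR4-NOT deadenylase, which shortens poly(A) tails. ES cells are known for a short G1 phase with little CDK inhibitor activity, and microRNAs of the miR-290 family are known to help maintain that cycle by lowering its inhibitors. That is known of ES cells with Dgcr8, which the cells of all 3 groups here lack.

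The sequences of both transfected microRNAs are shown because the groups differ by them. In the RefSeq table (GRCm38.p6) the seed of let-7c-5p, bases 2 to 8 from the 5′ end, is shared by 11 mature names and that of miR-294-3p by 5. Below, the seed is in capitals, and let-7a-5p, miR-295-3p and miR-302b-3p stand for further members with the same seed.
let-7c-5p: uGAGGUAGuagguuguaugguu
let-7a-5p: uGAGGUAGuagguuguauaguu
miR-294-3p: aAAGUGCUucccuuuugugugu
miR-295-3p: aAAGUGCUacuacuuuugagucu
miR-302b-3p: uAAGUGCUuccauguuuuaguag

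Differences were read on the log2 scale from a single limma fit of all 9 arrays and all 13182 genes, and a gene was called at a Benjamini-Hochberg adjusted p under 0.05. Values after ± are the SD over 3 arrays for a level and the standard error for a difference. The mimics separated the tested members clearly. With miR-294, 5 of 8 were lower than mock and 0 were higher, where 21.1% of all tested genes were lower and 20.7% higher. With let-7c, 2 of 8 were higher than mock and 0 were lower, where 13.9% of all tested genes were higher and 14.8% lower. Set directly against each other, 7 of 8 were higher with let-7c and 0 were lower, where 26.2% of all tested genes were higher and 24.5% lower. At an unadjusted p under 0.05, limma still placed 0 members higher with miR-294 than with mock, and 0 lower with let-7c than with mock or with miR-294. The fit behind these counts did not pair arrays by replicate number. With that number as a block, 6 of 8 members were lower with miR-294 than with mock, where 3096 of 13182 genes were. With let-7c, 3 were then higher than mock, where 2272 genes were. The members were chosen with earlier results of these data known, so these counts describe them and are no independent test. In RNA from whole cultures, fewer cells of a kind and less RNA per cell cannot be told apart.

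Tob1, which encodes a Tob-family antiproliferative protein, changed most. Its values were 9.85, 9.75 and 9.85 on the mock arrays, 9.94, 9.86 and 9.94 with let-7c, and 8.74, 8.59 and 8.80 with miR-294. The 3 miR-294 arrays lay far below all others. The group means were 9.81 ± 0.06 for mock and 8.71 ± 0.11 for miR-294 (log2, SD, n = 3), a difference of -1.10 ± 0.06, or 2.15-fold lower (limma, adjusted p = 2.42e-07). By size this was number 60 among the 2786 genes that fell with miR-294, and only 0.706% of all tested genes were lower by 2-fold or more. With let-7c every array lay just above every mock array, yet the difference of 0.10 (95% interval -0.03 to 0.23) was not called (adjusted p = 0.243). Between the mimics, Tob1 was 2.30-fold higher with let-7c (1.20 ± 0.06, adjusted p = 6.34e-08).

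Tob2, its closest relative in the family, moved the same way by less. It read 7.91, 8.12 and 8.11 with mock, 8.22, 8.16 and 8.11 with let-7c, and 7.63, 7.67 and 7.75 with miR-294. The miR-294 arrays again lay below all of the others, while the let-7c and mock arrays overlapped. Tob2 fell with miR-294 (-0.37 ± 0.06, 1.29-fold, adjusted p = 0.000855). It was not called with let-7c (0.12, 95% interval -0.02 to 0.26, adjusted p = 0.200) and in the direct comparison the let-7c arrays were higher by 0.48 ± 0.06 (adjusted p = 6.97e-05).

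Btg1, the gene of a B-cell translocation-associated antiproliferative protein, read 11.04, 10.96 and 10.86 with mock, 11.26, 11.10 and 11.04 with let-7c, and 10.69, 10.54 and 10.47 with miR-294. Every miR-294 array was below every mock array, and Btg1 fell by 0.38 on the log2 scale (SE 0.07, 1.30-fold, adjusted p = 0.00168). With let-7c the arrays overlapped those of mock, and the difference of 0.18 ± 0.07 was not called (95% interval 0.02 to 0.34, adjusted p = 0.0926). It was called with the replicate number as a block (adjusted p = 0.00735), and each let-7c array was above the mock array of the same number. Over all alternatives the adjusted p ran from 0.00735 to 0.290. Set against miR-294, let-7c gave 1.48-fold more Btg1 (0.56 ± 0.07, adjusted p = 6.69e-05).

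Btg2, a p53-inducible family member, read 8.44, 8.59 and 8.66 with mock, 8.52, 8.56 and 8.65 with let-7c, and 8.20, 8.26 and 8.32 with miR-294. It was lower on every miR-294 array than on any other array, a fall of 0.30 against mock (SE 0.06, 1.24-fold, adjusted p = 0.00244). The let-7c and mock arrays covered nearly the same range, with a difference of 0.01 and a 95% interval of -0.13 to 0.15 (adjusted p = 0.926). The direct difference between the mimics was 0.31 ± 0.06 (adjusted p = 0.00134). All 4 Btg/Tob genes with a probe set of their own thus fell with miR-294, and the level with let-7c exceeded that with miR-294 for each. The related symbols Btg1b, Btg1c and Btg4 had probe sets of their own, and these were dim on all 9 arrays.

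**Figure D1:**
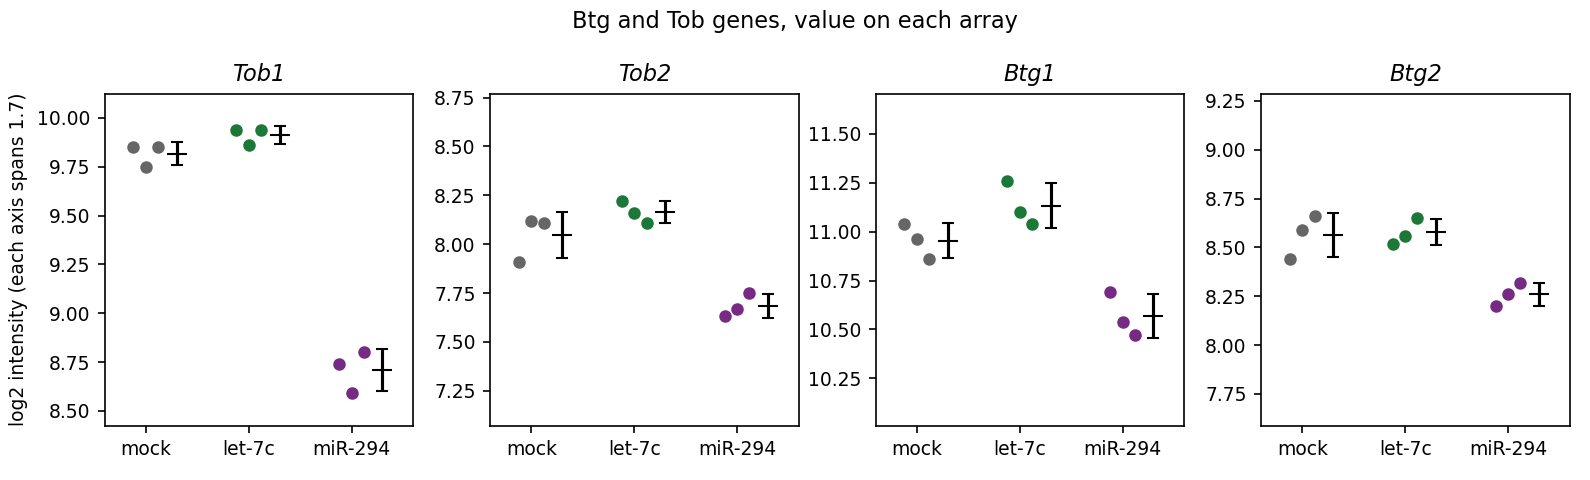
Log2 intensity of Tob1, Tob2, Btg1 and Btg2 on each of 3 mock, 3 let-7c and 3 miR-294 arrays. Points are arrays, the horizontal mark is the group mean, bars are the SD, and every vertical axis spans the same width but has its own start. The miR-294 arrays sit below the other 6 for all 4 genes, by most for Tob1 (8.59 to 8.80 against 9.75 to 9.94).

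Among Cip/Kip inhibitors, Cdkn1b and Cdkn1c differed. The brighter of both Cdkn1b probe sets read 9.40, 9.41 and 9.42 with mock, 9.27, 9.45 and 9.47 with let-7c, and 9.27, 9.11 and 9.19 with miR-294. The mock arrays were nearly equal, while 1 let-7c array stood as low as the highest miR-294 array. Cdkn1b was lower with miR-294 than with mock (-0.22 ± 0.06, 1.17-fold, adjusted p = 0.0128), a call that ended without miR-294 replicate 2 (-0.18, adjusted p = 0.0544; 0.00115 to 0.0544 over the alternatives). Against let-7c it was lower with miR-294 too: let-7c minus miR-294 was 0.21 ± 0.06 (adjusted p = 0.0128). That call ended without let-7c replicate 3 (0.17, adjusted p = 0.0551) or miR-294 replicate 2 (0.17, adjusted p = 0.0566), with a range of 0.00192 to 0.0566 over the alternatives. With let-7c it did not pass the threshold against mock (-0.01, 95% interval -0.14 to 0.12, adjusted p = 0.907).

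The dimmer Cdkn1b probe set gave a larger fall. It read 7.91, 7.97 and 7.91 with mock, 7.75, 7.81 and 7.83 with let-7c, and 7.57, 7.37 and 7.61 with miR-294. Here the 3 groups did not overlap, and mock was highest. With every probe set tested, the miR-294 difference was -0.41 ± 0.06 (adjusted p = 0.00154), against -0.22 ± 0.06 (adjusted p = 0.0269) for the brighter set in that same fit. The let-7c difference of -0.13 ± 0.06 was not called in the dimmer set either (adjusted p = 0.179). The probe sets of Cdkn1b thus had the same direction for miR-294 but not the same size.

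Cdkn1c, an imprinted gene, showed the least spread of the tested members. It read 8.46, 8.52 and 8.58 with mock, 8.47, 8.59 and 8.62 with let-7c, and 8.52, 8.58 and 8.60 with miR-294, and all 3 groups overlapped. The difference was 0.04 with let-7c (95% interval -0.08 to 0.16, adjusted p = 0.628) and 0.05 with miR-294 (-0.07 to 0.17, adjusted p = 0.498). The mimics differed by -0.01 (-0.13 to 0.11, adjusted p = 0.904), so a change as large as that of the other members between the mimics, the smallest being 0.21, lies outside this interval.

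Among the Ink4 members, Cdkn2b and Cdkn2d were called higher with let-7c, and the dim Cdkn2c was not tested. Cdkn2b, which encodes p15Ink4b, read 8.26, 8.27 and 8.32 with mock, 8.62, 8.63 and 8.88 with let-7c, and 8.30, 8.25 and 8.19 with miR-294. The let-7c arrays lay above all others, with 1 of them well above its fellows, and the miR-294 and mock arrays overlapped. Cdkn2b rose with let-7c by 0.42 ± 0.07, or 1.34-fold (adjusted p = 0.00102), number 267 by size among the 1831 genes that rose. With miR-294 the difference was -0.04 (95% interval -0.19 to 0.11, adjusted p = 0.676). Between the mimics it was 0.46 ± 0.07 (adjusted p = 0.000164).

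Cdkn2d, encoding p19Ink4d, read 8.27, 8.21 and 8.27 with mock, 8.60, 8.54 and 8.57 with let-7c, and 8.10, 8.10 and 8.19 with miR-294. None of the 3 groups overlapped, with let-7c highest and miR-294 lowest. Cdkn2d rose with let-7c by 0.32 ± 0.05, or 1.25-fold (adjusted p = 0.000453). Its difference with miR-294, -0.12 ± 0.05, was not called (adjusted p = 0.0524), although all 3 arrays lay below mock. It became a call with the replicate number as a block (adjusted p = 0.0377), with the stricter filter (0.0315) and without miR-294 replicate 3 (-0.15, adjusted p = 0.0346). The lowest and highest adjusted p of all alternatives were 0.0315 and 0.150. Between the mimics the difference was 0.44 ± 0.05, or 1.36-fold (adjusted p = 1.04e-05).

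Cdkn2c, encoding p18Ink4c, was the dim member. It read 6.16, 6.14 and 6.28 with mock, 6.60, 6.77 and 6.92 with let-7c, and 6.06, 5.95 and 5.79 with miR-294. The groups were in the same order as for Cdkn2d and did not overlap, although only 1 let-7c array passed the brightness limit. When no filter on dim probe sets was set, the let-7c difference from mock was 0.57 ± 0.09 (adjusted p = 0.00189) and the difference between the mimics 0.83 ± 0.09 (adjusted p = 3.7e-05). The miR-294 difference of -0.26 ± 0.09 was not called there (adjusted p = 0.0581). A signal this near the dim end of the array limits what the size of these differences can tell.

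**Figure D2:**
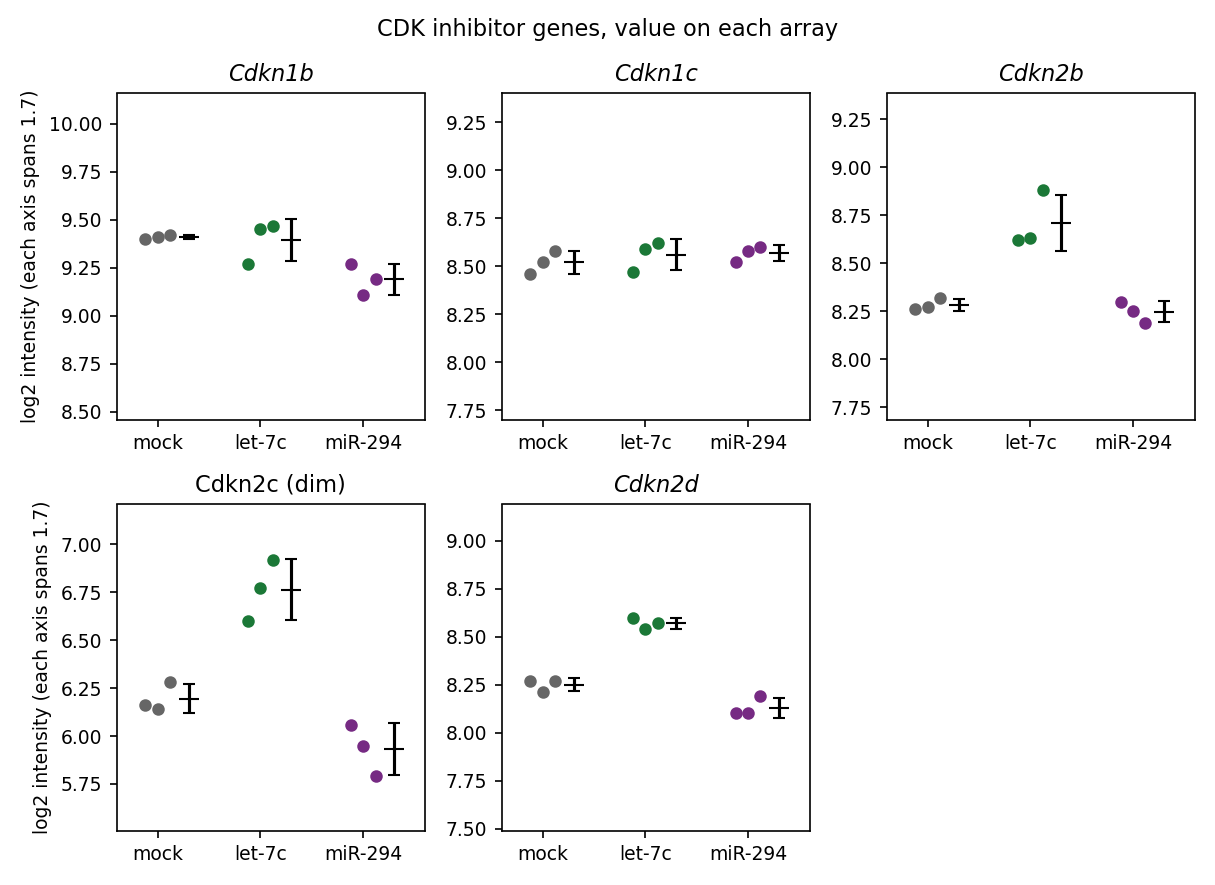
Log2 intensity of the 5 CDK inhibitor genes on each of 3 mock, 3 let-7c and 3 miR-294 arrays, with group means and SD as in the plot of the Btg and Tob genes and vertical axes of equal span. Cdkn2b, Cdkn2c and Cdkn2d are highest with let-7c, Cdkn1b is lowest with miR-294, and Cdkn1c overlaps in all groups.

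The order of the group means was therefore let-7c, mock, miR-294 for Cdkn2b, Cdkn2d, Btg1, Tob1 and Tob2 and for the dim Cdkn2c. Btg2 had this order too, but with let-7c only 0.01 above mock. For Cdkn2b and Cdkn2d, and for Cdkn2c with no filter, mock and miR-294 were not told apart by the fit. For Btg1, Tob1 and Tob2 let-7c and mock were not. With the replicate number as a block, Cdkn2d was called lower with miR-294 and Btg1 higher with let-7c. For Btg2 and Cdkn1b, let-7c and mock were not told apart and miR-294 was lowest. Cdkn2d, Tob1 and the dim Cdkn2c had 3 groups that did not overlap at all on the probe set used. Both comparisons with mock use the same 3 mock arrays, so only the direct comparison tests whether the mimics differ. Its median over the 8 tested members was 0.45, against -0.01 over all tested genes. The medians over the same members were 0.11 with let-7c and -0.26 with miR-294, each against 0.02 over all tested genes. In array ranges, 7 of 8 members did not overlap between the mimics and were higher with let-7c (28.7% of all tested genes), 6 lay below mock with miR-294 (25.5%) and 3 lay above mock with let-7c (22.0%).

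**Figure D3:**
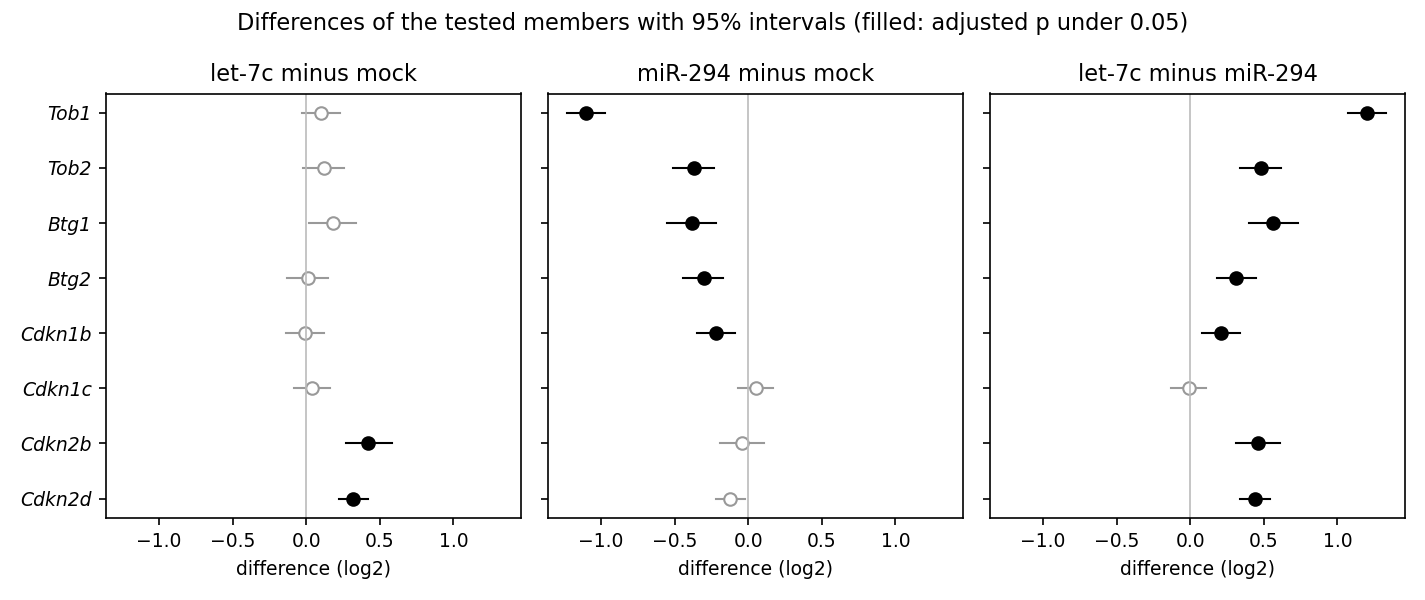
Log2 difference of each of 8 tested members in the 3 comparisons, with its 95% interval from the limma fit; filled points have an adjusted p under 0.05. Between the mimics every point but that of Cdkn1c is filled and above 0, from 0.21 for Cdkn1b to 1.20 for Tob1.

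Start-site windows from RefSeq (GRCm38.p6), 250 bases before to 50 after each start, were read for 9 members, with 11 windows in all; Cdkn1c is not in the table. Those of Tob1 and Cdkn2b are shown because these genes had the largest called change with each mimic. Capitals mark TATAAA, a core promoter element searched on the gene's strand, and TGACGTCA, the cyclic AMP response element, which reads the same on both strands.
Tob1, chr11:94211204-94211503, + strand: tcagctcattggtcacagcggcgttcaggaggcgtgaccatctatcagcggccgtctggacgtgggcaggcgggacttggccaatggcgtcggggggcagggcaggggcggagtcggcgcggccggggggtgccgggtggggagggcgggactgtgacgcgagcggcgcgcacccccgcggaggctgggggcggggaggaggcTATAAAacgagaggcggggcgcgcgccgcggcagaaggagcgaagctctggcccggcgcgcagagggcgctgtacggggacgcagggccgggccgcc
Cdkn2b, chr4:89310983-89311282, - strand: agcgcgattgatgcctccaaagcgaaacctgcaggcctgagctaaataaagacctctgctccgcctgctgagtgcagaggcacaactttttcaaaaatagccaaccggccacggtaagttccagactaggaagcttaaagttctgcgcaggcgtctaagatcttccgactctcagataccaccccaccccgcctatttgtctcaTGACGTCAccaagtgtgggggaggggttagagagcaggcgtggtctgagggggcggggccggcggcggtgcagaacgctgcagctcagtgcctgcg

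TATAAA was in the windows of Tob1 and Btg1, 2 of the 11 member windows, and in 8.32% of all 32851 windows. It began 47 bases before the start of Tob1 and 26 before that of Btg1. TGACGTCA was in those of Cdkn2b, 46 bases before the start, and Btg2, 166 before, and in 1.79% of all windows. The E-box CACGTG, a site of Myc with Max, was found for Cdkn2c alone (7.15% of all windows). The GC box GGGCGG, on either strand, was in 9 of the 11 member windows and 35.7% of all windows. The median GC content of all windows was 52.7%, and that of the member windows ran from 44% to 75.7%. None of these motifs contains another. They were chosen after the windows had been read, and a match is only a match of letters. Whether any motif bears on the differences was not tested.

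Cyclins, CDKs and genes that activate CDKs were taken as a further list. With let-7c, 7 of 13 tested genes fell and 1 rose (median -0.17), where 14.8% of all tested genes were lower and 13.9% higher (median 0.02). The falls were those of some of the cyclins and of CDK activators, namely Cdc25a, Cdk7 and Ccnh. None was that of a kinase the inhibitors bind: Cdk1 (0.01), Cdk2 and Cdk4 were not called, and Cdk6 was the gene that rose. Among so few kinases, with 14.8% of all tested genes lower, the lack of a fall is no result about them as a group. Cdc25a, the phosphatase that activates Cdk2, fell from 10.42 ± 0.01 to 9.87 ± 0.03 (-0.55 ± 0.04, adjusted p = 1.02e-05), Ccne1, for cyclin E1, from 11.15 ± 0.04 to 10.72 ± 0.06 (-0.43 ± 0.05) and Ccnd1, for cyclin D1, from 11.04 ± 0.06 to 10.54 ± 0.04 (-0.50 ± 0.05). With miR-294, 4 of 13 fell and 3 rose (median -0.08), counts near the 21.1% lower and 20.7% higher of all tested genes (median 0.02). Ccnd1 fell there too (-0.76 ± 0.05, adjusted p = 1.05e-06), while Cdc25a rose (0.36 ± 0.04, adjusted p = 5.96e-05). The other D cyclin genes, Ccnd2 and Ccnd3, were not called with let-7c (-0.08 ± 0.12, adjusted p = 0.641, and -0.09 ± 0.07, adjusted p = 0.426). Nor were they called with miR-294 (-0.18 ± 0.12, adjusted p = 0.239, and 0.09 ± 0.07, adjusted p = 0.379). The cyclin E genes differed from each other. Ccne2 fell with miR-294 (-0.33 ± 0.07, adjusted p = 0.00452) and with let-7c (-0.36 ± 0.07, adjusted p = 0.00421). Ccne1 rose with miR-294 (0.25 ± 0.05, adjusted p = 0.00302), and let-7c minus miR-294 was -0.68 ± 0.05 (adjusted p = 1.3e-06).

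Of the kinases, Cdk2 and Cdk4 were not called against mock. Cdk2 was at 10.67 ± 0.04 with mock, 10.76 ± 0.05 with let-7c (adjusted p = 0.190; 0.0394 under quantile normalization) and 10.71 ± 0.04 with miR-294 (adjusted p = 0.485). Cdk4, an Ink4 partner, was at 12.79 ± 0.05, 12.78 ± 0.02 (adjusted p = 0.956) and 12.87 ± 0.03 (adjusted p = 0.150; 0.0356 with an intensity trend and robust prior). Cdk6, the other Ink4 partner, rose with let-7c (0.18 ± 0.06, adjusted p = 0.0466). That call was lost in 8 of 17 alternatives: without let-7c replicate 2 (0.140) or 3 (0.109), miR-294 replicate 1 (0.0568) or mock replicate 1 (0.143), 2 (0.0514) or 3 (0.108), with no filter (0.0876) and with every probe set tested (0.0802). With miR-294 Cdk6 was not called (-0.09 ± 0.06, adjusted p = 0.262), but let-7c exceeded miR-294 by 0.27 ± 0.06 (adjusted p = 0.0031), a call kept in all 17 alternatives. Cdk7, the CDK-activating kinase, differed between the mimics by -0.35 ± 0.06, with let-7c lower (adjusted p = 0.000288, also kept in all 17). Its differences from mock were less steady. With let-7c it was -0.17 ± 0.06 (adjusted p = 0.043), and that call was lost in 12 of 17 alternatives, among them the loss of any array but let-7c replicate 3, with a highest adjusted p of 0.139. With miR-294 it was 0.18 ± 0.06 (adjusted p = 0.0225), a call lost without miR-294 replicate 2 (0.0727), mock replicate 1 (0.0678) or mock replicate 3 (0.0674). Cdk7 was added after its values were seen.

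Genes that act on Cdkn1b or its protein were measured as well. Skp2, the F-box protein that marks p27Kip1 for degradation, fell with both mimics, from 10.10 ± 0.07 to 9.54 ± 0.04 with let-7c (-0.57 ± 0.06, adjusted p = 7.21e-05) and to 9.61 ± 0.11 with miR-294 (-0.49 ± 0.06, adjusted p = 7.21e-05). In this list of 16 tested genes, 4 fell and 1 rose with let-7c (median -0.07), and 5 fell and 3 rose with miR-294 (median -0.07). Over all tested genes 14.8% were lower and 13.9% higher with let-7c, and 21.1% lower and 20.7% higher with miR-294, so the miR-294 counts lie near that background. The largest fall with miR-294 was that of Uhmk1, a kinase that phosphorylates p27Kip1, from 10.72 ± 0.06 to 9.67 ± 0.07 (-1.05 ± 0.05, adjusted p = 1.17e-07), followed by Akt1 (-0.67 ± 0.06, adjusted p = 5.25e-06), whose kinase also phosphorylates it. With let-7c, Ubac1 (-0.20 ± 0.05, adjusted p = 0.0156) and Cul1 (-0.18 ± 0.06, adjusted p = 0.0339), both of ubiquitin ligases, fell after Skp2. Ubac1 lost its call when let-7c replicate 2 (0.0502) or mock replicate 2 (0.0563) was left out. Cul1 lost its call when let-7c replicate 1 (0.0976) was left out, or mock replicate 1 (0.0535), 2 (0.108) or 3 (0.0820), with no filter (0.0676) and with every probe set tested (0.0602). In the limma fit, Cks1b (0.44 ± 0.04, adjusted p = 1.55e-05), Rbx1 (0.29 ± 0.04, adjusted p = 0.000239) and Ubac1 (0.15 ± 0.05, adjusted p = 0.033) rose with miR-294. Rbx1 was also the gene that rose with let-7c (0.15 ± 0.04, adjusted p = 0.023). The list thus did not move in 1 direction with either mimic.

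Of the deadenylation complexes that Btg and Tob proteins bind, 15 genes were tested. The counts of lower genes, 3 with miR-294 and 2 with let-7c, lie near the 21.1% and 14.8% of all tested genes, so they are no result about the complexes as a group. Of all tested genes, 20.7% were higher with miR-294 and 13.9% with let-7c, against 0 of these 15 with either. With miR-294, 3 fell and 0 rose in the limma fit (median 0.00), namely the catalytic subunit genes Cnot6, from 11.31 ± 0.06 to 10.44 ± 0.06 (-0.87 ± 0.06, adjusted p = 8.51e-07), and Cnot6l (-0.64 ± 0.06, adjusted p = 6.25e-06), and Tnks1bp1 (-0.42 ± 0.05, adjusted p = 9.63e-05), a protein found with the complex. With let-7c, 2 fell and 0 rose (median -0.03), namely Cnot11 (-0.52 ± 0.05, adjusted p = 4.62e-05) and Cnot10 (-0.23 ± 0.05, adjusted p = 0.00598), subunits of the same module of the complex. Cnot7 and Cnot8, the catalytic subunits that Btg and Tob proteins bind directly, were not called with miR-294 (-0.10, adjusted p = 0.0680, and 0.11, adjusted p = 0.119; for Cnot7 0.0409 with the stricter filter and 0.0367 with an intensity trend and robust prior) or with let-7c (-0.02, adjusted p = 0.734, and -0.01, adjusted p = 0.941); they were picked for this known contact after their values were seen.

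**Figure D4:**
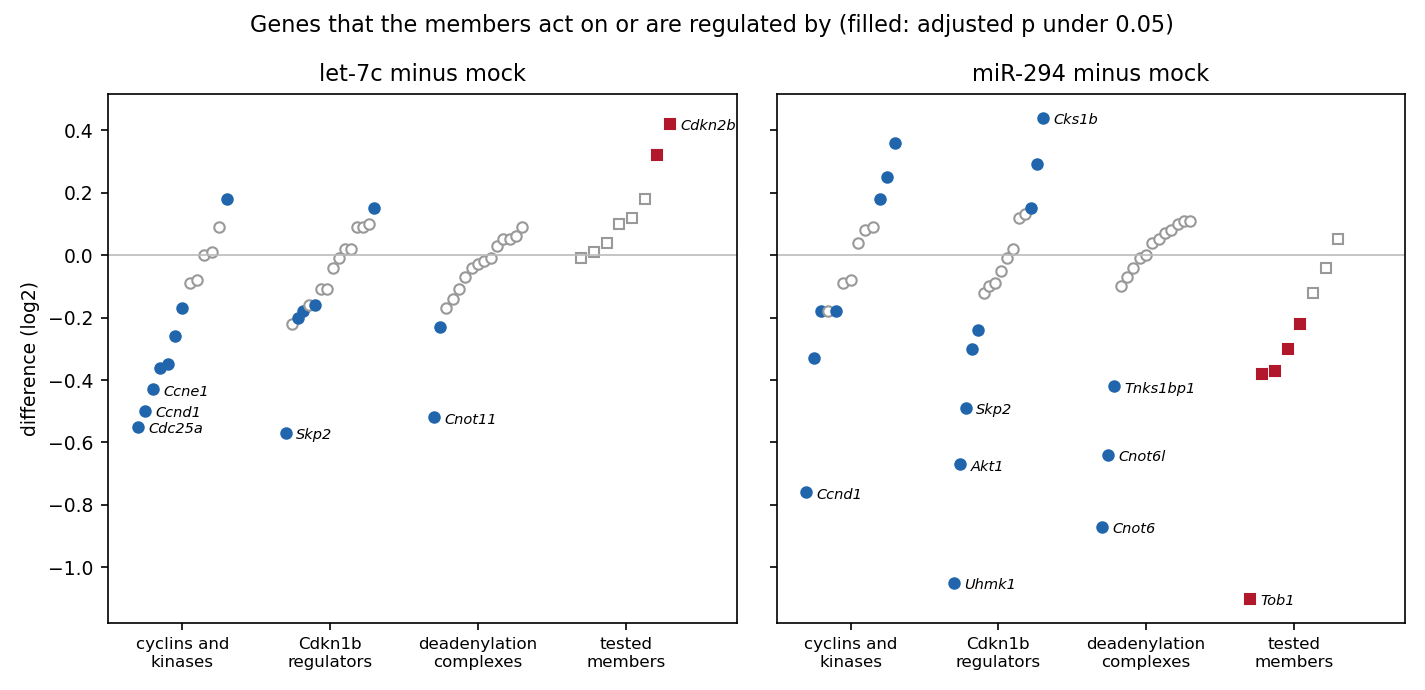
Log2 differences from mock for let-7c and for miR-294. Circles are 13 genes of cyclins, CDKs and CDK activators, 16 genes that act on Cdkn1b and 15 of deadenylation complexes. Squares are the 8 tested members. Filled symbols have an adjusted p under 0.05 and names mark the larger changes. With miR-294 the lowest point among the members is Tob1 (-1.10), among genes acting on Cdkn1b Uhmk1 (-1.05) and among deadenylation genes Cnot6 (-0.87).

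Inhibitors and relatives outside the 10 members behaved as follows. Cdkn2a, a further Ink4 gene, is the coding gene next to Cdkn2b in RefSeq's order on chromosome 4. It was not called with let-7c (0.11 ± 0.05, adjusted p = 0.142) or miR-294 (0.02 ± 0.05, adjusted p = 0.793). Nor was its difference between the mimics called (0.09 ± 0.05, adjusted p = 0.176). Cdkn3, which encodes a phosphatase that acts on CDKs, fell with miR-294 (-0.23 ± 0.06, adjusted p = 0.0146) and differed between the mimics, with let-7c higher (0.35 ± 0.06, adjusted p = 0.000676). Cdkn1a had no probe set of its own.

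Genes most like the 3 tested members with the widest range of group means were found by Pearson's r over the 9 arrays, which here mostly follows the 3 group means. For Tob1 they were D6Wsu163e (r = 0.999), Rassf9 (0.997) and Kmt2e (0.996), which differed from mock with miR-294 by -1.03, -0.70 and -1.16. For Btg1 they were Sh3gl2 (0.988), Dock2 (0.986) and Med12l (0.986), and for Tob2 Gpat3 (0.981), Msl3l2 (0.978) and Dcaf10 (0.976). Of the 13182 tested genes, 569 others had an r above 0.95 with Tob1, 167 with Btg1 and 40 with Tob2. Such counts also depend on the scatter of each gene within its groups, so they do not compare how common the patterns are.

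All 10 ES cell markers in the list, among them Pou5f1, Sox2 and Nanog, lay above the 40th percentile on every array. Their summed linear intensity was 47000 to 47800 with let-7c, 50200 to 52100 with mock and 52800 to 55500 with miR-294. Of these 10, 6 were lower with let-7c, where 14.8% of all tested genes were lower. With miR-294, 5 were higher and 1 was lower, where 20.7% and 21.1% of all tested genes were. The summed marker level thus differed between the same groups as the members, in the opposite direction: lowest with let-7c and highest with miR-294. Its part in the results was not tested. Feeder fibroblast markers (4 of 8 bright on all arrays, with Dcn, Lum, Postn and Pdgfrb dim) summed to 1040 to 1300 with let-7c, 1100 to 1260 with miR-294 and 1030 to 1180 with mock. Primitive endoderm markers (3 of 7 bright on all arrays and 1 on some; Sox17, Pdgfra and Dab2 dim) summed to 1050 to 1100, 1020 to 1060 and 943 to 1010 in the same order. Trophoblast markers (3 of 6; Cdx2, Elf5 and Tfap2a dim) summed to 809 to 826, 758 to 812 and 714 to 763, and neurectoderm markers (5 of 6; Pax3 dim) to 2090 to 2260, 1950 to 2100 and 2150 to 2270.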

How the data were processed

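The deposited table gives 1 value for each of 35557 probe sets on 9 arrays; the submitters' processing notes name GCRMA (version: not given in the sources used here). From their range, and with no header stating a scale, the deposited numbers were read as log2 intensities, and they were not normalized again. Probe sets were named from GEO's annotation, symbols being updated by gene ID through RefSeq (GRCm38.p6). Only probe sets with 1 symbol were used (21789), and the one with the highest mean stood for a gene. Tests used limma 3.58.1 in R 4.3.3 (lmFit, eBayes, 3 group means, 6 residual degrees of freedom), two-sided, and were tested on simulated data. All 10 members were named. From each context list the 3 called genes with the largest change against mock were named, and Cdk2, Cdk4, Cdk6, Ccnd1 and Skp2 always. Further genes of these lists were named after their values were seen. Members and lists were chosen with earlier results of these data known. Same-numbered arrays deviated together from their group means in let-7c and mock (r over genes 0.1328 to 0.4175). The same held in miR-294 and mock (0.2718 to 0.3627), so the numbers were taken to pair arrays in the comparisons with mock. The main fit did not use this pairing, and its p-values and intervals treat the arrays as unpaired. The replicate block, run as an alternative, did use it. In let-7c and miR-294 they did so less (0.0285 to 0.2482). Alternatives were a replicate block, each array left out, other filters, other probe set rules, other scaling and another prior. The number of arrays limits the precision. Target sites in transcripts and protein sequences were not analysed here.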

Additional observations from a re-analysis of the deposited data

How the results depend on the processing

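Across 17 alternatives for each of the 8 tested members, 132 of 136 values per comparison kept their direction and their side of the threshold. Many of these alternatives leave a member's difference as it is and can change only its adjusted p. These are the block, both filters, every probe set tested, the other prior and the loss of an array outside the comparison. The share that kept direction is therefore partly fixed by the choice of alternatives. With a replicate block the members higher with let-7c numbered 3 (Btg1 added) in place of 2 and those lower with miR-294 6 (Cdkn2d added) in place of 5. The block changed no other call of a member. In the direct comparison, where the pairing was not taken as given, the block left 7 members higher and gave 3731 higher and 3500 lower genes in place of 3460 and 3234, and 8 of 9 arrays correlated best with an array of their own number. The sign turned only for differences that were never called: Cdkn1b with let-7c without let-7c replicate 1 (0.05), Btg2 with let-7c without let-7c replicate 3 (-0.03) or mock replicate 1 (-0.05), and Cdkn1c between the mimics without let-7c replicate 1 (0.03) or miR-294 replicate 3 (0.01). With 1 array left out, Btg2 ran from -0.05 to 0.06 with let-7c and Cdkn1c from -0.04 to 0.03 between the mimics. The cause was not tested. Leaving out 1 array gave 4 to 6 members lower with miR-294, 6 or 7 higher in the direct comparison and 2 higher with let-7c. With 3 arrays a group, an interval near ± 0.13 around 0 leaves small changes undetected, and the dim Cdkn2c was tested only with no filter.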
